A study of Mus musculus with 19 samples.

Results

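The 4 hepatocellular adenomas (HCA) of the series were compared by the Trp53 genotype of their mice, 2 HCAs of Trp53 f/f mice (mice 2430 and 6199) against 2 HCAs of Trp53 f/+ mice (mice 5884 and 5901), among 19 arrays in all. All 4 mice were Mad2 f/f females on a C57BL/6.129 background with albumin-Cre (Alb-Cre), which recombines floxed alleles in hepatocytes, so that the groups differed in whether both copies of Trp53 or only 1 carried the floxed allele. The f/f mice were 16.9 months old (2430) and 12 months old (6199), and the f/+ mice were 14.2 months old (5884) and 12 months old (5901). Each mouse gave 1 HCA and 1 sample of unaffected liver, and each sample was labeled and hybridised against control DNA of a male mouse on its own array. The number of arrays limited the precision, since each genotype was represented by 2 tumors. The p-values take in only the spread between these tumors. In the main comparison of autosomes this spread was pooled over all 19. Autosomes of a tumor are not replicates, so a pooled spread can misstate that of a single autosome.

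Mad2, encoded by Mad2l1, is part of the spindle assembly checkpoint, which delays anaphase until all chromosomes are attached to the spindle. Cells without it divide before attachment is complete and gain or lose whole chromosomes, a state called chromosomal instability (CIN). The tumor suppressor p53, encoded by Trp53, arrests or removes cells with damaged or unbalanced genomes, and its dose is therefore of interest for the number and kind of chromosome changes that a tumor carries. An HCA is a benign tumor of hepatocytes. In aCGH, the log2 ratio of sample to control signal rises with copies gained and falls with copies lost, and the aCGH ratio of a chromosome was here the mean over its probes after the median of all autosomal probes had been set to 0. A sample mixes tumor cells with other cells, so a change in some of the cells cannot be told apart from a smaller change in all of them, and a ratio of 0 marks the middle of the tumor's own autosomes and not a known copy number.

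The spread between neighbouring probes, a measure of probe noise, ranged from 0.236 to 0.272 on the log2 scale in the HCAs and from 0.217 to 0.285 in the livers. Between 98.4% and 99.6% of the autosomal spots were well above background in both channels. The HCAs of mice 2430 and 5884 were scanned on one day and those of mice 5901 and 6199 on another, so that each scan day held 1 tumor of each genotype. The livers were not balanced in this way, as only the liver of mouse 6199 was scanned on the second day. HCA 5901 and its own liver were thus scanned on different days. Age went with the scan day of the HCAs. The mice of the first day were 16.9 months (2430, f/f) and 14.2 months old (5884, f/+), and both mice of the second were 12 months old. Contrasts within a scan day, here and below, therefore cannot tell scan day from age, and only the second day held genotypes of equal age.

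In all 4 HCAs most autosomes had ratios outside the range of the livers, and much of the pattern was common to both genotypes. Past the cut-off of 0.3 used below, only HCA 2430 had both gains and losses. The ratio lay outside the range of the 4 livers on 18 of 19 autosomes in HCA 2430, 17 in HCA 6199, 18 in HCA 5884 and 18 in HCA 5901. On 13 of 19 autosomes the ratio had the same sign in all 4 tumors, 6 above 0 and 7 below 0. Among the 6 above 0, Chr15 had the highest mean in each genotype. Its ratios were 0.45 and 0.26 in the f/f tumors 2430 and 6199 and 0.39 and 0.46 in the f/+ tumors 5884 and 5901. Chr3 was low throughout, at −0.28 and −0.30 in the f/f tumors and at −0.18 and −0.26 in the f/+ tumors. Chr18 was above 0 in every tumor, at 0.30 and 0.18 in the f/f tumors and at 0.20 and 0.27 in the f/+ tumors, and the genotypes overlapped.

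**Figure D1:**
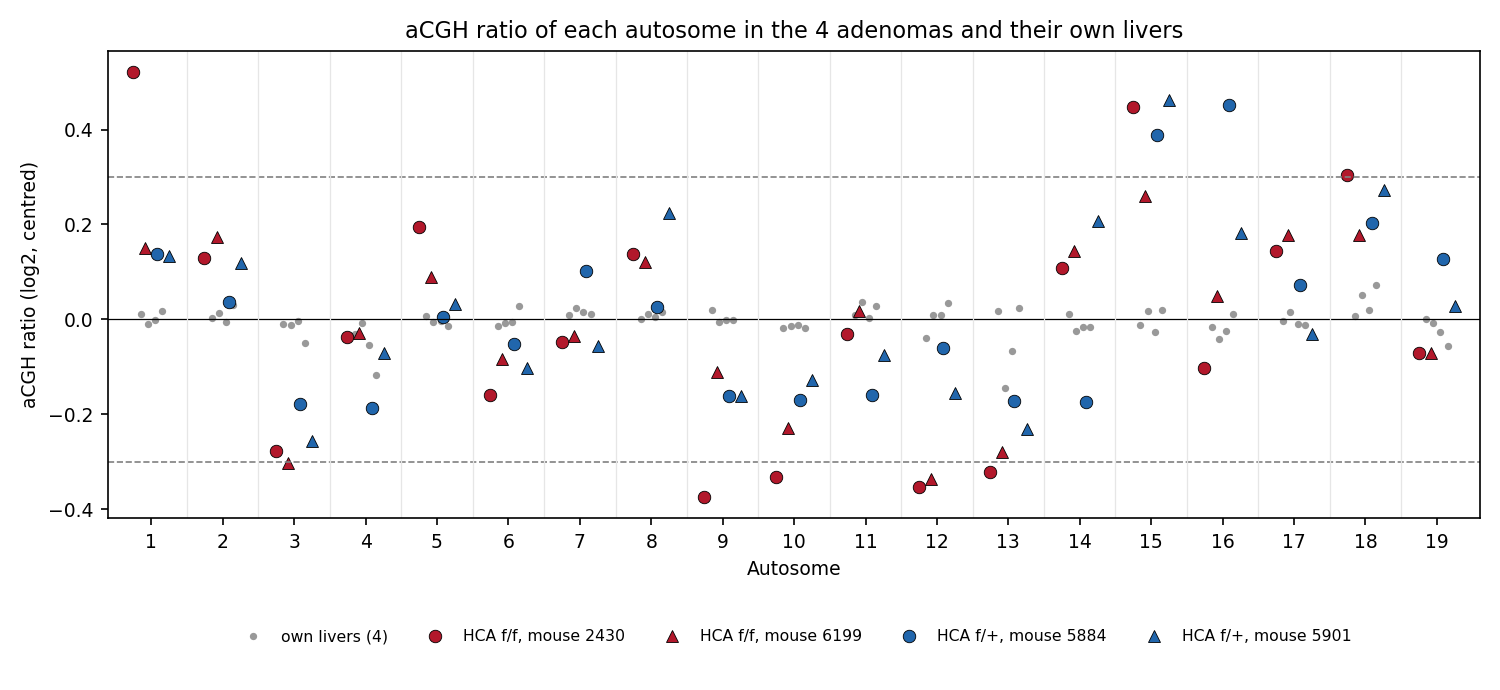
aCGH ratio (log2, centred) of each of the 19 autosomes, with 1 symbol per tumor, red for Trp53 f/f, blue for f/+, and gray points for the livers of the same mice. Dashed lines mark the cut-off of 0.3. On Chr16 both blue symbols lie above both red ones, and on Chr12 both red symbols lie near −0.35 while the blue ones lie at −0.06 and −0.15.

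On Chr16 the HCAs of f/+ mice had the higher ratios. The ratio was 0.45 in HCA 5884 and 0.18 in HCA 5901, both f/+, against −0.10 in HCA 2430 and 0.05 in HCA 6199, both f/f. The genotypes did not overlap, and the tumors of the f/f mice lay on either side of 0. The mean was −0.03 ± 0.11 (SD, n = 2) in f/f and 0.32 ± 0.19 (SD, n = 2) in f/+, a difference of −0.34 on the log2 scale (SE 0.09, 95% interval −0.53 to −0.15, limma adjusted p = 0.016 over 19 autosomes). The SE and the interval come from a spread that limma pooled over the 19 autosomes, and the SE from the values of Chr16 alone was 0.15. Chr16 was the only autosome past the threshold of 0.05 in this fit (percent called 5.26 of 19 autosomes), and 3 autosomes had an unadjusted p under 0.05. The difference ran along the chromosome: in 99.1% of its windows of 20 neighbouring probes both f/f tumors were below both f/+ tumors, against 24.6% of all 11063 windows. The windows of a chromosome hold the probes of its mean and are not independent, so such shares, here and below, are no added support. In the livers Chr16 ranged from −0.04 to 0.01. The call rested on all 4 tumors and on the way the spread was estimated: the adjusted p was 0.0685 after the own liver was subtracted and 0.0602 with the scan day in the fit, it was 0.133 with centring on the median of the 19 autosome means and 0.135 with all 19 arrays in the fit, and it lay between 0.116 and 0.527 when 1 tumor was left out. The difference was −0.55 between the tumors 2430 and 5884 of the first scan day and −0.13 between the tumors 6199 and 5901 of the second, it lay between −0.48 and −0.21 when 1 tumor was left out, and it was −0.06 after normexp background correction (limma adjusted p = 0.561).

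Chr12 was lower in the HCAs of f/f mice. Its ratio was −0.35 in HCA 2430 and −0.34 in HCA 6199, both f/f, against −0.06 in HCA 5884 and −0.15 in HCA 5901, both f/+. The f/f tumors lay within 0.02 of each other and 0.18 below the nearer f/+ tumor. The means were −0.35 ± 0.01 (SD, n = 2) in f/f and −0.11 ± 0.07 (SD, n = 2) in f/+, and the difference of −0.24 (SE 0.09, 95% interval −0.43 to −0.05) had a limma adjusted p of 0.154. Both f/f tumors were below both f/+ tumors in 92.2% of the windows of Chr12. The difference was −0.29 on the first scan day and −0.18 on the second, and the livers ranged from −0.04 to 0.03. It was −0.12 without background correction and −0.10 after normexp (limma adjusted p = 0.109 and 0.435).

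Chr10 was below 0 in all 4 tumors, at −0.33 in HCA 2430, −0.23 in HCA 6199, −0.17 in HCA 5884 and −0.13 in HCA 5901. Both f/f tumors lay below both f/+ tumors, by 0.06 at the nearest, and the livers lay between −0.02 and −0.01. The difference of −0.13 had a 95% interval of −0.32 to 0.06 (limma adjusted p = 0.532) and was −0.06 after normexp.

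On Chr11, the chromosome that carries Trp53, the f/f tumors lay near 0, at −0.03 in HCA 2430 and 0.02 in HCA 6199. The f/+ tumors were lower, at −0.16 in HCA 5884 and −0.07 in HCA 5901. The difference of 0.11 had a 95% interval of −0.08 to 0.30 (limma adjusted p = 0.532), and it was 0.13 on the first scan day and 0.09 on the second. Both f/f tumors were above both f/+ tumors in 59.0% of the windows of Chr11, against 21% of all windows. The livers of the 4 mice ranged from 0.00 to 0.04.

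In all, the genotypes did not overlap on 12 of 19 autosomes in the HCAs (63.2%), 6 with f/f higher and 6 with f/f lower, and on 4 of 19 in the livers of the same mice (21.1%). With 2 tumors against 2 an exact two-sided permutation test cannot go below p = 0.333, so such a gap is a description. Of the 12 autosomes, 8 had means at least 0.1 apart. Beside Chr10, Chr11, Chr12 and Chr16 these were Chr1, Chr5, Chr17 and Chr19.

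The gap on Chr1 was narrow and the difference came from a single tumor. Chr1 had the highest ratio of any autosome in HCA 2430, 0.52, while it was 0.15 in HCA 6199 and 0.14 and 0.13 in the f/+ tumors 5884 and 5901. The difference was 0.20 (95% interval 0.01 to 0.39, limma adjusted p = 0.254) and was 0.02 without HCA 2430. After normexp background correction Chr1 was the autosome past the threshold, with a difference of 0.23 and a limma adjusted p of 0.024.

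On Chr19 the f/f tumors were lower and on Chr17 they were higher. Chr19 had a ratio of −0.07 in both f/f tumors, 0.13 in HCA 5884 and 0.03 in HCA 5901, and f/f was below f/+ in 76.8% of its windows. Chr17 was at 0.14 and 0.18 in the f/f tumors 2430 and 6199 and at 0.07 and −0.03 in the f/+ tumors 5884 and 5901, with f/f above f/+ in 68.3% of its windows. The differences were −0.15 (95% interval −0.34 to 0.04) for Chr19 and 0.14 (95% interval −0.05 to 0.33) for Chr17, each with a limma adjusted p of 0.532. After normexp the difference on Chr19 was −0.01 (limma adjusted p = 0.880). On Chr5 the f/f tumors were at 0.19 and 0.09 and the f/+ tumors at 0.00 and 0.03, a difference of 0.12 with a limma adjusted p of 0.532.

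Chr9 and Chr13 were low in all 4 tumors and lowest in HCA 2430. Chr9 was at −0.37 in HCA 2430, −0.11 in HCA 6199 and −0.16 in both f/+ tumors, so that the f/f tumors lay on either side of the f/+ tumors. Chr13 was at −0.32 and −0.28 in the f/f tumors and at −0.17 and −0.23 in the f/+ tumors. The liver of mouse 6199 was itself at −0.14 on Chr13, the largest ratio of any autosome in the 4 livers, and the genotype difference on Chr13 went from −0.10 to −0.06 after the own liver was subtracted. The part of the liver value in this result was not tested.

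**Figure D2:**
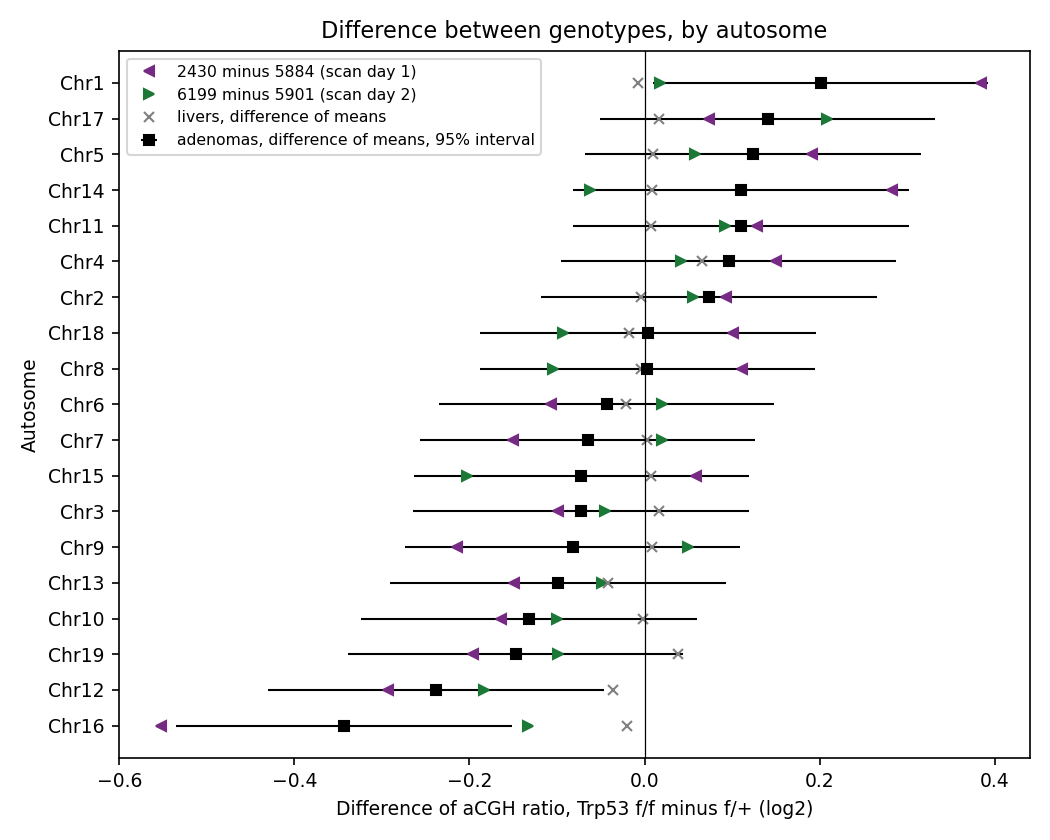
Difference of the aCGH ratio between genotypes (f/f minus f/+, log2) for each autosome, ordered by size. Squares with bars give the difference of the 2 means and its 95% interval in limma, triangles the difference between the tumors of each scan day, and crosses the same difference between the livers. The interval is farthest from 0 for Chr16, and the livers stay within 0.07 of 0 on every autosome.

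In the livers, which were measured the same way, no autosome passed the threshold between f/f and f/+ mice (0% called by limma, 1 with an unadjusted p under 0.05). The largest liver difference was 0.07 on Chr4, where the liver of mouse 5901 was at −0.12.

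Total CIN adds up the sizes of the 19 autosome ratios regardless of sign. It was highest in an f/f tumor but did not separate the genotypes. Its value was 4.09 in HCA 2430 and 2.84 in HCA 6199, both f/f, and 2.86 in HCA 5884 and 2.93 in HCA 5901, both f/+. The f/f tumors were thus the highest and the lowest of the 4. The means were 3.47 ± 0.89 (SD, n = 2) in f/f and 2.89 ± 0.05 (SD, n = 2) in f/+ (exact two-sided permutation p = 1). The difference of 0.57 was 1.23 on the first scan day and −0.09 on the second, and it was −0.06 without HCA 2430. The livers of the same mice had a Total CIN of 0.24, 0.46, 0.31 and 0.57 for mice 2430, 6199, 5884 and 5901.

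Split by direction, the sum of the ratios below 0 was −2.11 in HCA 2430 and −1.48 in HCA 6199, against −1.32 in HCA 5884 and −1.27 in HCA 5901. Here the genotypes did not overlap (exact two-sided permutation p = 0.333, the smallest that the design allows). The sum of the ratios above 0 was 1.99 and 1.36 in the f/f tumors and 1.54 and 1.66 in the f/+ tumors, which overlapped.

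Whole-chromosome events were counted where a chromosome lay above 0.3 or below −0.3. HCA 2430 had 7 events, gains of Chr1, Chr15 and Chr18 and losses of Chr9, Chr10, Chr12 and Chr13. HCA 6199 had 2, losses of Chr3 and Chr12. HCA 5884 had 2, gains of Chr15 and Chr16, and HCA 5901 had 1, a gain of Chr15. Chr12 was past the cut-off in both f/f tumors and in neither f/+ tumor, and Chr15 was past it in both f/+ tumors and in HCA 2430. Losses past the cut-off were found in the f/f tumors, 4 and 2, and in none of the f/+ tumors. The mean number was 4.5 ± 3.54 (SD, n = 2) in f/f and 1.5 ± 0.707 (SD, n = 2) in f/+ (exact two-sided permutation p = 0.667), and the difference of 3 was 0.5 without HCA 2430 and 5.5 without HCA 6199. Several ratios lay close to the cut-off, such as Chr18 at 0.304 in HCA 2430, Chr3 at −0.302 and Chr13 at −0.279 in HCA 6199. With a cut-off of 0.2 the tumors 2430, 6199, 5884 and 5901 had 8, 5, 3 and 6 events, with one of 0.4 they had 2, 0, 1 and 1, and no liver had an event beyond 0.3.

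**Figure D3:**
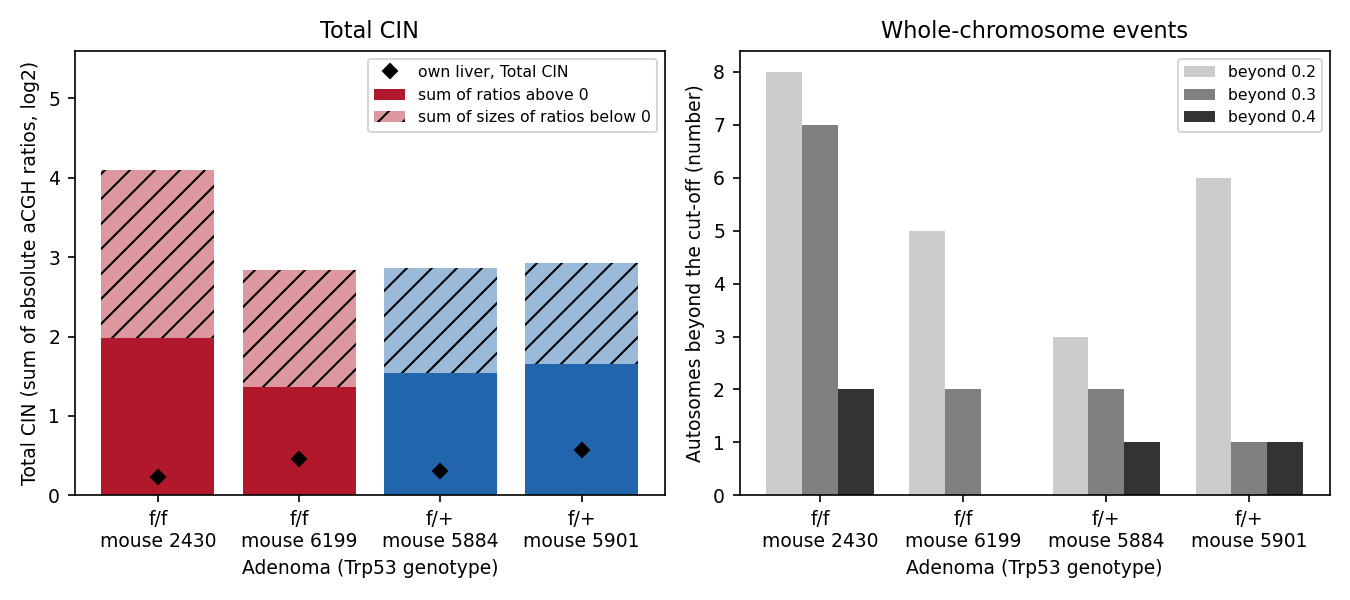
Left, Total CIN of each tumor (log2), stacked from the ratios above 0 (solid) and the sizes of those below 0 (hatched), with diamonds for the liver of the same mouse. Right, number of autosomes beyond cut-offs of 0.2, 0.3 and 0.4. HCA 2430 stands at 4.09, and the other tumors between 2.84 and 2.93.

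The 4 profiles were also compared tumor by tumor across the 19 autosomes, as a description, since autosomes of a tumor share its centring and are not replicates. The f/f tumors 2430 and 6199 were the most alike in shape (r = 0.89), with a mean absolute difference of 0.088 per autosome. The f/+ tumors 5884 and 5901 had r = 0.72 and a mean absolute difference of 0.105. Tumors of different genotype were as close in the pair 6199 and 5901 (r = 0.85, mean absolute difference 0.086), followed by 2430 and 5901 (r = 0.81, 0.117), and farther apart where HCA 5884 took part (r = 0.56, 0.184 with HCA 2430 and r = 0.57, 0.138 with HCA 6199). HCA 5901 was thus nearer to both f/f tumors by r than to the other f/+ tumor.

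Among the HCAs, breaks within chromosomes were found in a single tumor of each genotype. HCA 5884 had 5 breaks on Chr3, Chr6, Chr8 and Chr18, HCA 2430 had 2 breaks on Chr12, and none were called in HCA 6199 and HCA 5901. Breaks were not particular to tumors: the livers of mice 2430, 6199, 5884 and 5901 had 2, 4, 0 and 2. Both breaks of HCA 2430 were also called in its own liver, at the same positions, and are counted below. The mean was 1 ± 1.41 (SD, n = 2) in f/f and 2.5 ± 3.54 (SD, n = 2) in f/+ (exact two-sided permutation p = 1). With a smaller step of 0.15 between segments the difference turned from −1.5 to 2 breaks.

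The breaks of HCA 5884 were absent from its own liver. On Chr6 the first 70.5 Mb (chr6:3024849-73515479, positions on NCBI37) were at 0.10 in HCA 5884 and at −0.15, −0.09 and −0.11 in HCA 2430, HCA 6199 and HCA 5901. A segment of 4.79 Mb followed (chr6:73531224-78320612), which was at −0.55 in HCA 5884 and between −0.24 and −0.16 in the other tumors, and the livers there ranged from −0.07 to −0.01. The remainder of Chr6 was at −0.18 in HCA 5884 and between −0.16 and −0.07 in the others. The mean ratio of Chr6 in HCA 5884, −0.05, therefore joined a stretch above 0 and stretches below 0.

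On Chr8 the first 87.4 Mb (chr8:3111085-90515070) were at 0.14 in HCA 5884 and the last 41.0 Mb (chr8:90536327-131550805) at −0.18. The other tumors were above 0 on both segments, at 0.15, 0.13 and 0.24 on the last for HCA 2430, HCA 6199 and HCA 5901. The last 3.39 Mb of Chr3 (chr3:156186173-159573224) were at 0.09 in HCA 5884, against −0.31, −0.32 and −0.25 in HCA 2430, HCA 6199 and HCA 5901. The first 9.66 Mb of Chr18 were at 0.38 in HCA 5884 and the remainder at 0.18, and on this first segment the f/+ tumors (0.38 and 0.34) lay above the f/f tumors (0.29 and 0.19).

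**Figure D4:**
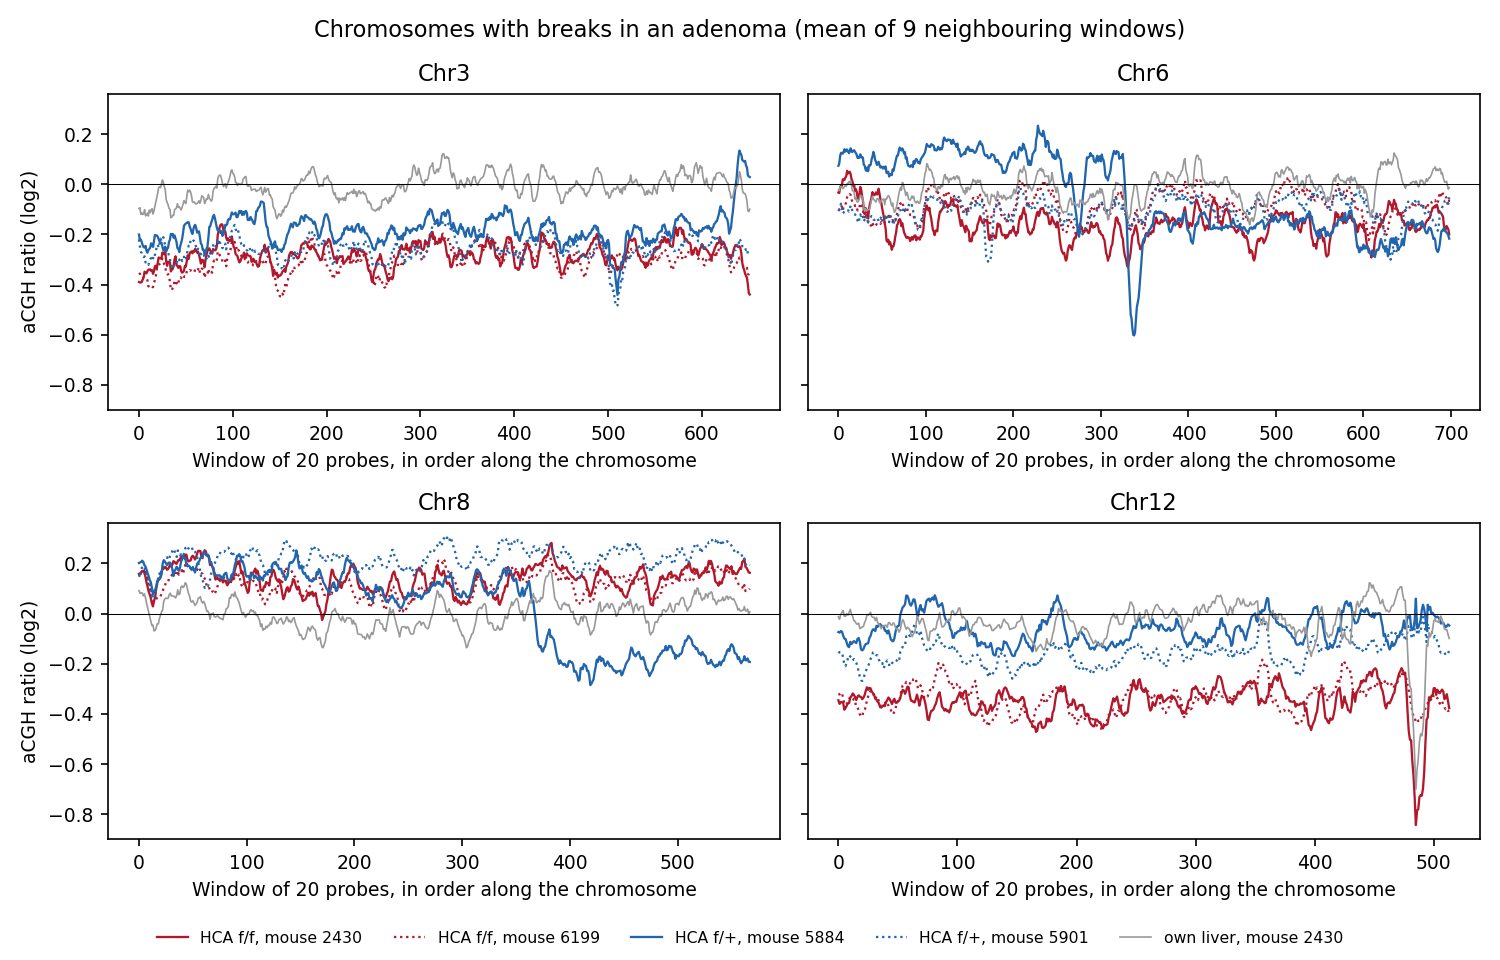
aCGH ratio (log2) along Chr3, Chr6, Chr8 and Chr12 in windows of 20 probes, smoothed over 9 windows, for the 4 tumors and, in gray, the liver of mouse 2430. HCA 5884 (solid blue) steps down on Chr6 and Chr8 and up at the end of Chr3, and near the end of Chr12 HCA 2430 (solid red) and its own liver dip together.

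The breaks of HCA 2430 on Chr12 bounded a segment of 2.31 Mb (chr12:114971220-117283759) with the largest genotype difference of the 12 segments, −0.59. It was at −0.80 in HCA 2430, −0.43 in HCA 6199, −0.01 in HCA 5884 and −0.04 in HCA 5901. The same breaks were called in the liver of mouse 2430, where the segment was at −0.62, while the livers of mice 6199, 5884 and 5901 were at 0.00, 0.09 and 0.11. On either side of it Chr12 remained apart by genotype, at −0.34 and −0.33 in the f/f tumors and −0.06 and −0.16 in the f/+ tumors before it, and at −0.34 and −0.35 against −0.01 and −0.11 behind it. The genotypes did not overlap on 7 of the 12 segments in the HCAs (58.3%, beside 63.2% of the autosomes) and on 5 of the 12 in the livers (41.7%).

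Windows were then compared one by one for differences narrower than a segment. No window passed the threshold between the HCAs of the genotypes (0% called of 11063 by limma), and 851 had an unadjusted p under 0.05. In the livers, 2 windows passed (0.0181%). To set whole-chromosome changes aside, the median of the chromosome was subtracted from each window, and windows were kept where both tumors of a genotype lay at least 0.3 beyond both of the other, a rule chosen after the values were seen. There were 9 such windows in the HCAs (0.0814%), in 7 regions on Chr3, Chr11 and Chr12, and 6 in the livers (0.0542%). In all 9 windows the livers of the same mice did not overlap either, in the same direction, and after the own liver was subtracted no window of the 11063 was left.

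The widest gap lay on Chr11, in a run of 11 probes over 122 kb (chr11:70985031-71107103) that was low in f/f and high in f/+ mice in both tissues. It was bounded by the livers, as the neighbouring probes on which the f/f and f/+ livers lay at least 1 apart. The livers therefore separate by choice, and the HCAs of the same mice are not independent of them. The mean ratio of the run in the livers was −1.56 in mouse 2430 and −1.38 in mouse 6199, both f/f, and 2.12 in mouse 5884 and 2.23 in mouse 5901, both f/+. In the HCAs it was −1.29 and −1.07 in the f/f tumors 2430 and 6199 and 1.88 and 1.32 in the f/+ tumors 5884 and 5901. All 11 probes separated the genotypes in the HCAs. High values were not particular to f/+: the run lay between 0.79 and 3.19 in the 11 arrays of mice with the Trp53 R246S mutation. For the window of 20 probes that holds most of the run, the difference was −1.52 in the livers (limma adjusted p = 2.7e-05 over all windows) and −1.11 in the HCAs (limma adjusted p = 0.0724).

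Since the probes of the run were chosen by their liver values, HCA values nearer to 0 follow in part from the choice. The HCA minus own liver was 0.27 ± 0.80 (SD over 11 probes) in mouse 2430, 0.31 ± 1.26 in mouse 6199, −0.24 ± 0.86 in mouse 5884 and −0.91 ± 0.79 in mouse 5901. In HCA 5901 the tumor was nearer to 0 than the liver on 10 of the 11 probes, against 6 to 8 in the other tumors. The 20 probes on the left of the run had means of 0.04 in the f/f tumors and −0.16 in the f/+ tumors, and those on the right −0.01 and −0.15. Trp53 lies on the same chromosome, but its position on NCBI37 was not used here and the distance of the run from it is not given.

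**Figure D5:**
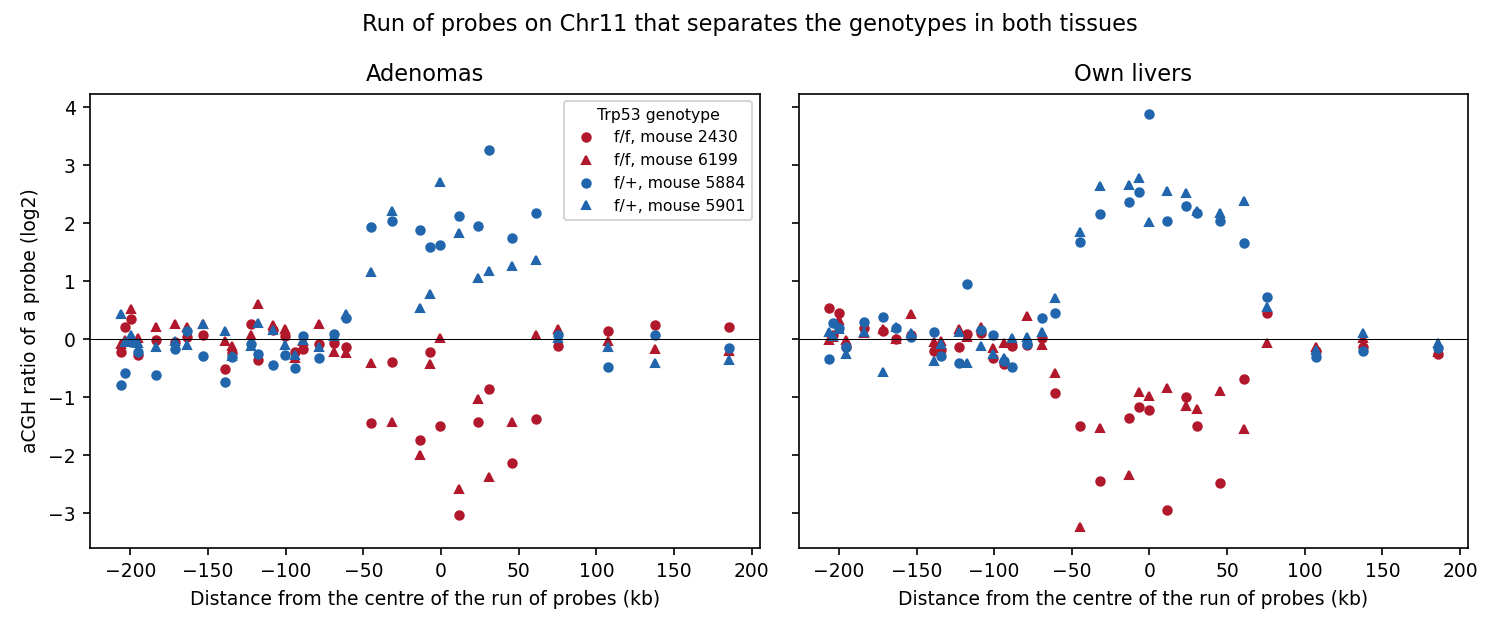
aCGH ratio (log2) of single probes around the run on Chr11, by distance from its centre in kb, in the HCAs (left) and the livers of the same mice (right), red for f/f and blue for f/+. Within the run the blue probes lie above the red ones in both tissues, and outside it the colours mix around 0.

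Another of the 7 regions lay on Chr3 (chr3:126026765-126197514). Relative to the chromosome median it was at −0.10 and −0.04 in the f/f tumors 2430 and 6199 and at −0.65 and −0.52 in the f/+ tumors 5884 and 5901. The livers followed the same order, at 0.03 and −0.15 in f/f and at −0.50 and −0.47 in f/+. The other 5 regions lay between 114784998 and 117283759 on Chr12, within the segment described above or next to it. There the sign changed along the chromosome, with f/f below f/+ in 3 regions and above f/+ in 2, and each region kept its sign in the livers.

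The probes could not be assigned to single genes, but the chromosome of a gene is known from the RefSeq table of GRCm38.p6. Mad2l1, the floxed checkpoint gene, lies on Chr6, where the genotypes overlapped. Of 20 genes of the p53 pathway, 1 (Trp63, a relative of Trp53) lay on Chr16. Of the 20, 4 lay on autosomes where f/f was below f/+ without overlap and 9 on autosomes where it was above. The 19 autosomes themselves were 6 and 6, which counts autosomes and not genes. Listed genes share autosomes and the share over all genes was not counted, so no excess can be read from these numbers. Mdm2, which targets p53 for degradation, lies on Chr10 together with Apaf1, a cell-death adaptor downstream of p53, and Cdkn1a, a cell-cycle inhibitor that p53 induces, lies on Chr17. For 15 genes of the spindle checkpoint the numbers were 3 and 9, and for 19 liver tumor genes 3 and 5. The liver tumor gene Myc, a growth-promoting transcription factor, lies on Chr15. This was 1 of the 6 autosomes above 0 in all 4 tumors, and it was past 0.3 in 3 of them. These counts place genes on chromosomes and measure no gene.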

How the data were processed

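Genomic DNA was measured on Agilent Mouse Genome CGH arrays with sample DNA in Cy5 and control DNA in Cy3. The authors deposited, for each array, log10 ratios of the processed red over green signals, with intensities of spot and local background, written by Feature Extraction 10.5.1.1 with positions on NCBI37, after linear dye normalization, and a table of all samples with the same log10 ratios. Here the 4 HCAs and the livers of the same 4 mice were used. Outlier spots were left out, saturated spots kept, and spots of a probe averaged, which left 221455 autosomal probes. The median Cy5 signal over local background was 1.84 to 2.93 across the arrays. Ratios were taken as log2, centred on the autosomal median (−0.05 to −0.03 before centring) and averaged over autosomes and over 11063 windows of 20 probes, with a median size of 160 kb. Genotypes were compared with limma 3.58.1 (R 4.3.3) and Benjamini-Hochberg adjustment over the 19 autosomes or all windows, threshold 0.05. For autosomes limma estimated a spread common to all 19 in the main comparison of the HCAs. In the fit of the livers the SE differed by autosome, from 0.019 to 0.047, and in that of HCA minus own liver from 0.092 to 0.104. Single values per tumor were compared with exact two-sided permutation tests (scipy 1.17.1). Breaks were called by binary segmentation between segments of at least 10 windows whose median ratios differed by at least 0.2. The segment ratios given above are means, and by means the Chr18 step of HCA 5884 (0.376 to 0.182) fell just short of this. Autosomes were named where they were Chr10, Chr11, Chr12 or Chr16, passed the threshold, had a tumor beyond 0.3, or had genotypes that did not overlap with means at least 0.1 apart, which gave 13. Members and gene lists were chosen with earlier results of these data known. Each HCA has the liver of its own mouse as partner, and over 19 autosomes the deviations of HCA and own liver from the means of the 4 HCAs and the 4 livers correlated between −0.01 and 0.15. Alternatives covered background correction, loess, the table of all samples, 3 centrings, the median, a probe filter, the own liver subtracted, scan day, all 19 arrays, other tests, each tumor left out, and other cut-offs, window sizes and steps. The steps were run on simulated data. For autosomes these were independent values with 1 spread common to all, so the runs do not test that assumption. The files pair no probe with a gene, so single genes were not analysed here.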

Additional observations from a re-analysis of the deposited data

Results flagged for a closer look

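Chr19 was flagged because the adenomas of the genotypes moved in opposite directions from their own livers. The HCA minus own liver was −0.07 and −0.06 in the f/f mice and 0.08 and 0.15 in the f/+ mice, a difference of −0.19 between the means (limma adjusted p = 0.248 over 19 autosomes, 2 mice per genotype). The X chromosome was flagged in HCA 5884, as a signal outside the autosomes, because its ratio of 1.07 lay above the range of the 4 livers, 0.89 to 0.97. The other HCAs had X ratios of 0.78 (2430), 0.77 (6199) and 0.85 (5901), below every liver, and all samples were from females measured against male control DNA. The genotypes did not overlap on X (exact two-sided permutation p = 0.333, the smallest that the design allows).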

How the results depend on the processing

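With 2 tumors a genotype, no call held when a tumor was left out. The number of autosomes past the threshold, 1 in the reported setting, was 0 with the replicate block by mouse (own liver subtracted) and 0 with scan day as a block. It was 0 with centring on the median of the 19 autosome means and 0 with all 19 arrays. With exact permutation 0 was fixed in advance, as the smallest p that the design allows is 0.333. After normexp the 1 call was Chr1 in place of Chr16. Windows past the threshold were 8 with scan day as a block (7 on Chr12 and 1 on Chr11), 1 with windows of 10 probes and 0 to 15 with a tumor left out. The difference in Total CIN turned on the second scan day (−0.0885) and without HCA 2430 (−0.0559). It was 1.20 without HCA 6199, 1.23 on the first scan day and highest after normexp, at 1.29. The difference in whole-chromosome events was 0 without background correction and 0 at a cut-off of 0.4, and ranged from 0.5 to 5.5 with a tumor left out. The difference in breaks was 0 after normexp, 0 on the second scan day, 2 at a step of 0.15 and −4 to 1 with a tumor left out. Of the 13 named autosomes, 10 kept the direction of their difference in every alternative. Chr15 turned to 0.11 after normexp and 0.0584 on the first scan day, with a range of −0.165 to 0.0212 with a tumor left out. Chr18, at 0.00 as reported, was at −0.0019 after loess, −0.00022 with centring on the autosome means and −0.0933 on the second scan day, with a range of −0.0586 to 0.0665. Chr9 was at 0.0497 on the second scan day, with a range of −0.213 to 0.0494. After normexp the difference fell to −0.10 on Chr12 and −0.01 on Chr19, and without background correction it was −0.12 and −0.07. The causes were not tested. No autosome passed in the livers under any alternative run there.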
